A study of Mus musculus with 24 samples.

Results

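A group of 6 receptor genes of natural killer (NK) cells was followed across the series: Klrb1a and Klrb1b of the NKR-P1 family, Klrd1 (CD94), Klrc1 (NKG2A), Klrk1 (NKG2D) and Klrg1. They were taken by name, and every probe set annotated to them was kept, which gave 6 of the 8251 genes measured and 8 of the 12422 probe sets tested. Of the 8, 7 name 1 gene. The other, 93380_at, is annotated to both Klrb1b and Klrb1c and is given by its probe set ID.

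The study compared leukocytes of mice that differ in how aggressive the islet infiltrate of the pancreas is. Infiltrates and T cells came from mice with the BDC2.5 transgene, a T cell receptor that turns CD4 T cells against islet beta cells. On the B6g7 background (C57Bl/6 with the H2g7 haplotype) the infiltrate is labelled aggressive, and on NOD benign, so that background and kind of infiltrate go together. Total infiltrate, sorted from the pancreas as viable CD45+ cells, was measured on 3 B6g7 arrays (25, 28 and 24 days of age) and 3 NOD arrays (25 days). Splenic NK cells, sorted as asialo-GM1+ CD45+, had 2 arrays per background. On B6g7 the NK donors were 6 and 3 weeks old and had no transgene, and on NOD array 2 alone is labelled with BDC2.5. Asialo-GM1 is not exclusive to NK cells. Clonotype-high CD4+ T cells of the pancreas were measured on 2 B6g7 arrays (25 and 22 days) and 3 NOD arrays (24, 24 and 25 days). Those of the pancreatic lymph node were measured on 2 B6g7 arrays (25 and 22 days) and 3 NOD arrays (24, 22 and 25 days). Total splenic leukocytes, viable CD45+ cells with no age given, had 2 arrays per background, whose titles do not name BDC2.5. Separate animals are not stated as the source of the arrays of a group, so a p-value here covers the spread among arrays alone, which may be technical.

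These receptors are lectin-like transmembrane proteins of NK cells and of some T cells. All are encoded on mouse chromosome 6, in a region between bases 128609227 and 129682852 except Klrg1, which starts at base 122270596 (GRCm38.p6). They read the state of other cells: CD94 pairs with an NKG2 chain to bind Qa-1, an MHC class I molecule, NKG2D binds ligands that stressed or transformed cells display, NKR-P1B binds a lectin-like Clr protein of the same region, and KLRG1 binds cadherins. Inhibitory members (NKR-P1B, NKG2A, KLRG1) recruit phosphatases, and activating ones (NKR-P1C, NKG2D) signal through adaptor proteins such as DAP10, DAP12 and the Fc receptor gamma chain. NOD mice lack the NK1.1 epitope, which in C57BL/6 mice lies on NKR-P1C, the product of Klrb1c.

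All levels are log2 of the deposited intensity. Genes of tissues that no sort contains gave a median of 4.64 and a 90th percentile of 6.08 (21 genes measured), and a group mean at or under 6.08 is called not above the level of absent transcripts. RNA was amplified in 1 round for spleen and 2 rounds for the other populations. The gap between 3′ and 5′ Gapdh probe sets averaged 5.13 and 4.65 in B6g7 and NOD NK cells, 2.96 to 3.85 in infiltrate and T cell groups, and 0.33 and 0.22 in B6g7 and NOD spleen. Liver transcripts were seen in infiltrate B6g7 arrays 1 and 2, and in array 1 of each T cell group, with Fabp1 between 6.34 and 12.08 in those arrays. RMA is named for all arrays of B6g7 infiltrates, B6g7 NK cells, NOD pancreatic T cells and NOD spleen, for 1 of 2 NOD NK arrays, and for no array of the other groups. A difference in processing cannot be told apart from one in background in infiltrates, pancreatic T cells and spleen, or from one in population for infiltrates against spleen or pancreatic T cells on either background, for B6g7 NK cells against spleen or lymph node T cells, and for NOD pancreatic against lymph node T cells. In these bulk samples, fewer cells of a type and less RNA per cell cannot be told apart either.

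**Figure D1:**
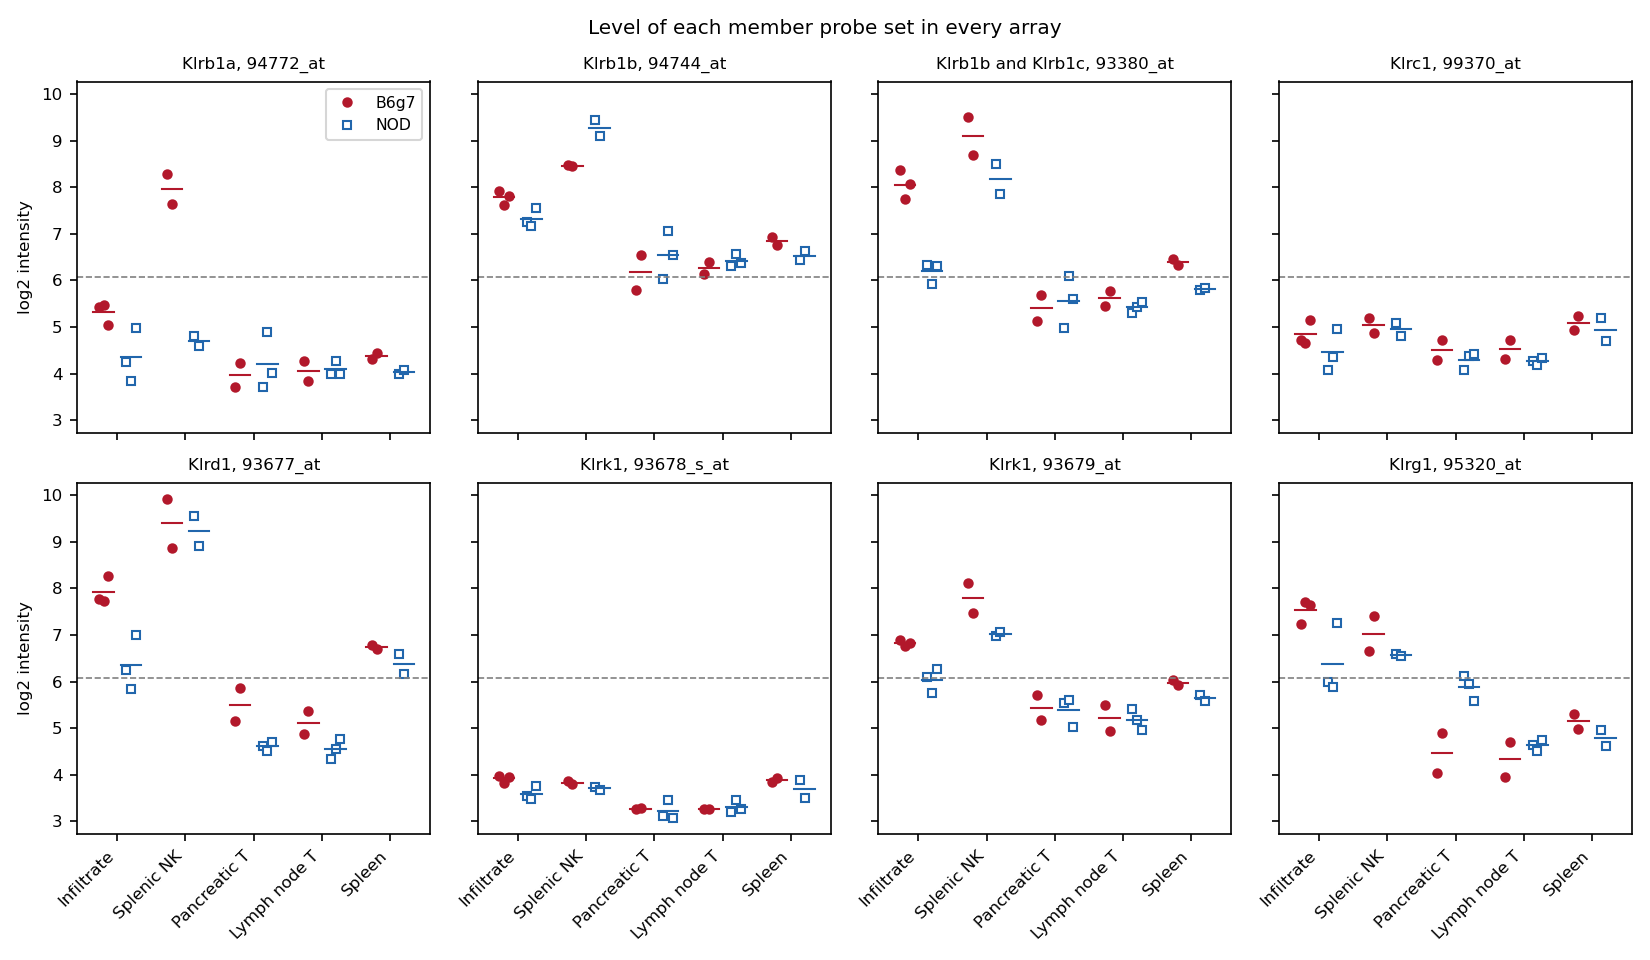
Log2 intensity of the 8 receptor probe sets in each of the 24 arrays, by population, with B6g7 as filled circles and NOD as open squares; short lines are group means and the dashed line is 6.08, the level that absent transcripts can reach. Klrb1a stands out in B6g7 NK cells (8.28 and 7.65) and in no other group exceeds 5.48, while Klrc1 and the Klrk1 probe set 93678_s_at stay under the dashed line everywhere.

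In NK cells, 1 receptor differed between the backgrounds past the threshold, the NKR-P1 gene Klrb1a. It read 8.28 and 7.65 in B6g7 NK cells, against 4.80 and 4.60 in NOD NK cells. Both B6g7 arrays lay far above both NOD arrays, whose mean of 4.70 was not above the level of absent transcripts. The difference of 3.27 (SE 0.36, 9.64-fold, limma adjusted p = 7.77e-04) had the smallest p of all probe sets in that comparison. It was the 1 receptor probe set of 8 with an adjusted p under 0.05, the threshold used throughout, where 0.0483% of all probe sets passed. Fitting the 4 NK arrays alone ended the call (adjusted p = 0.613), and over the 10 alternatives that kept its probe set the difference ran between 2.96 and 3.58. A strain difference in the transcript sequence under the probes and one in its amount cannot be told apart here.

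Klrb1b, which encodes the inhibitory receptor NKR-P1B, ran the other way in the same cells. It read 8.47 and 8.46 in B6g7 NK cells, against 9.45 and 9.11 in NOD NK cells. The arrays did not overlap, but the difference of -0.82 (SE 0.27) did not pass (limma adjusted p = 1, unadjusted p = 0.00794). The shared probe set 93380_at read 9.52 and 8.70 in B6g7 NK cells, against 8.50 and 7.86 in NOD NK cells. Its B6g7 arrays were the higher ones, without overlap, and the difference of 0.93 (SE 0.33) did not pass either (adjusted p = 1). So the single-gene Klrb1b probe set was lower in B6g7 NK cells, and the probe set shared with Klrb1c was higher, both without passing. For both, a strain difference in the transcript sequence under the probes and one in amount cannot be told apart.

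The upstream sequences of Klrb1a, the nearby Klrb1c and Klrb1b are shown because these 3 related genes, or the probe set that reads 2 of them, gave differences of opposite sign in NK cells. Each run is the 250 bases before the annotated start, from RefSeq on GRCm38.p6, minus strand, 5′ to 3′. The windows are chr6:128622935-128623184 for Klrb1a, chr6:128788642-128788891 for Klrb1c and chr6:128826316-128826565 for Klrb1b, where the more upstream of 2 annotated Klrb1b starts was used. Capitals mark TGTGGT, the core read by RUNX factors, searched on both strands.
Klrb1a: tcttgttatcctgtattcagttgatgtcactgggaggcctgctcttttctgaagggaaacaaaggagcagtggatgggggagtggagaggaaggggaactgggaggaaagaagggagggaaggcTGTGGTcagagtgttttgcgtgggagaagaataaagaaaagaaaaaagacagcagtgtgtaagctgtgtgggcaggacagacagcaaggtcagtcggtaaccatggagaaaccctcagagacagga
Klrb1c: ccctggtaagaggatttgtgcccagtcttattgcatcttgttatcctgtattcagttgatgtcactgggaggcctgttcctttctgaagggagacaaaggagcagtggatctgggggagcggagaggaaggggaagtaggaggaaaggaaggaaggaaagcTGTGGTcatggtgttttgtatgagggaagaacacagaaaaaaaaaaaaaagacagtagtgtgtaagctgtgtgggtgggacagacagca
Klrb1b: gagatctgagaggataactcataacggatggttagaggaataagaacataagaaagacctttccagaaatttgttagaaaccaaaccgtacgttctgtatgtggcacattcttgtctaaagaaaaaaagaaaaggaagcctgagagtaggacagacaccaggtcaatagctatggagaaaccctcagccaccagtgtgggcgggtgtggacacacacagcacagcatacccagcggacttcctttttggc
TGTGGT occurred 126 bases before the Klrb1a start and 89 bases before the Klrb1c start, and the Klrb1b window held none. It also occurred before Klrk1 (129 bases) and, on the opposite strand, before Klrc1 (87 bases), and 14% of 32851 promoter windows of this length hold it. The T-box core GGTGTG, in 16.3% of all windows, was found 48 bases before the Klrb1b start only among these 5 windows. GGAAGT, read by ETS factors and in 19.7% of all windows, lay 119 bases before the Klrb1c start and, on the opposite strand, 14 bases before the Klrb1b start. The Klrb1a and Klrb1c windows were 87.4% identical over 215 aligned columns, whereas Klrb1a and Klrb1b shared 73.2% over 82 columns. These are reference (C57BL/6) sequences, and the NOD sequence was not used here.

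In the infiltrates, mean receptor levels were higher in B6g7 mice. All 8 probe sets had B6g7 means above NOD, with a median difference of 0.88, against -0.02 over all probe sets. Of the 8, 2 passed, 93380_at and Klrd1, where 0.274% of all probe sets passed. The shared NKR-P1 probe set 93380_at read 8.37, 7.74 and 8.07 in B6g7 infiltrates, against 6.34, 5.93 and 6.31 in NOD infiltrates. Every B6g7 array exceeded every NOD array by more than the spread within either group. It rose by 1.87 (SE 0.27, 3.65-fold, limma adjusted p = 0.00462). The same probe set was also higher in B6g7 NK cells (0.93) and B6g7 spleen (0.58), without passing. A strain difference in the transcript sequence under its probes and one in amount cannot be told apart, nor can its 2 genes. Within runs of adjacent array serial codes that hold both backgrounds, the infiltrate difference was 2.24 (1 against 2 arrays) and 1.76 (1 against 1). Without the 2 B6g7 infiltrates that carry liver transcripts, 1 array against 3, the difference was 1.88 and did not pass (adjusted p = 0.219).

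Klrd1, whose product CD94 is the common partner of the NKG2 chains, read 7.77, 7.72 and 8.26 in B6g7 infiltrates, against 6.24, 5.85 and 7.0 in NOD infiltrates. The groups did not overlap, and NOD array 3 was the highest of its group. The rise of 1.55 (SE 0.30, limma adjusted p = 0.0359) was 1.72 and 1.27 within the 2 serial code runs. The call was lost when any 1 of 5 of the 6 infiltrate arrays was left out (adjusted p between 0.096 and 0.22), with serial runs as a block (0.0799), in a fit of the infiltrates alone (0.147) and without arrays with liver transcripts (1.90, 0.294). It was kept without NOD array 3 (1.87, adjusted p = 0.0125).

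Klrg1, an inhibitory receptor of mature NK cells and of differentiated effector T cells, read 7.24, 7.70 and 7.65 in B6g7 infiltrates, against 5.98, 5.88 and 7.26 in NOD infiltrates. NOD array 3 fell inside the B6g7 range, and the difference of 1.15 (SE 0.32) did not pass (limma adjusted p = 0.278). Without that array it was 1.60 and passed (adjusted p = 0.0181). With any other infiltrate array left out it ran from 0.90 to 1.30 and did not pass. Within serial runs the difference was 1.31 and 0.38.

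Klrk1, which encodes the activating receptor NKG2D, read 6.90, 6.77 and 6.83 in B6g7 infiltrates, against 6.09, 5.76 and 6.27 in NOD infiltrates by probe set 93679_at. The arrays did not overlap, and the difference of 0.79 (SE 0.21) missed the threshold (limma adjusted p = 0.21). Klrb1a read 5.43, 5.48 and 5.04 in B6g7 infiltrates, against 4.25, 3.83 and 4.97 in NOD infiltrates, all under the level of absent transcripts. Its difference of 0.97 had an adjusted p of 0.4 and was 1.39 and 0.08 within the serial runs. Klrb1b differed by 0.47 and Klrc1 by 0.38, both with adjusted p = 0.999.

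Marker levels of several cell types also differed in mean between the infiltrates. Of 21 NK marker genes other than these receptors, 15 were measured, and 14 were higher in B6g7 infiltrates, Eomes by 0.01 only. The median difference over all probe sets was -0.02. The Ly49 gene Klra3 alone passed (1.84, limma adjusted p = 0.00826), where 0.274% of all probe sets did. Klra3 was also higher in B6g7 spleen (5.97 and 6.18, against 4.85 and 4.59 in NOD). For Klra3, a strain difference in the sequence under the probes and one in amount cannot be told apart. The summed intensity of the 15 markers ran between 2690 and 3570 in B6g7 infiltrates and between 1350 and 2190 in NOD infiltrates. Their mean log2 level was 6.74 ± 0.15 in B6g7 infiltrates and 6.03 ± 0.25 in NOD infiltrates (SD, n = 3 each), without overlap, with an exact two-sided permutation p of 0.1, the smallest that 3 against 3 arrays allow. Ncr1 (NKp46), the most NK-restricted of these markers, was not above the level of absent transcripts on either side (4.43 in B6g7 and 4.24 in NOD). In the sorted NK arrays it read 5.45 and 5.12 in B6g7 and 5.94 and 6.08 in NOD, so its probe set reads low where NK cells are enriched. The T cell arrays of both sites read 3.49 to 4.71, under every NK array. What its level in infiltrates says about their number of NK cells was not tested. The 11 T cell markers averaged 7.17 to 7.47 in B6g7 infiltrates and 6.79 to 7.15 in NOD infiltrates, and the 7 granulocyte markers 5.96 to 6.05 and 6.34 to 6.75 in the same order. The part of these cells in the receptor differences was not tested.

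**Figure D2:**
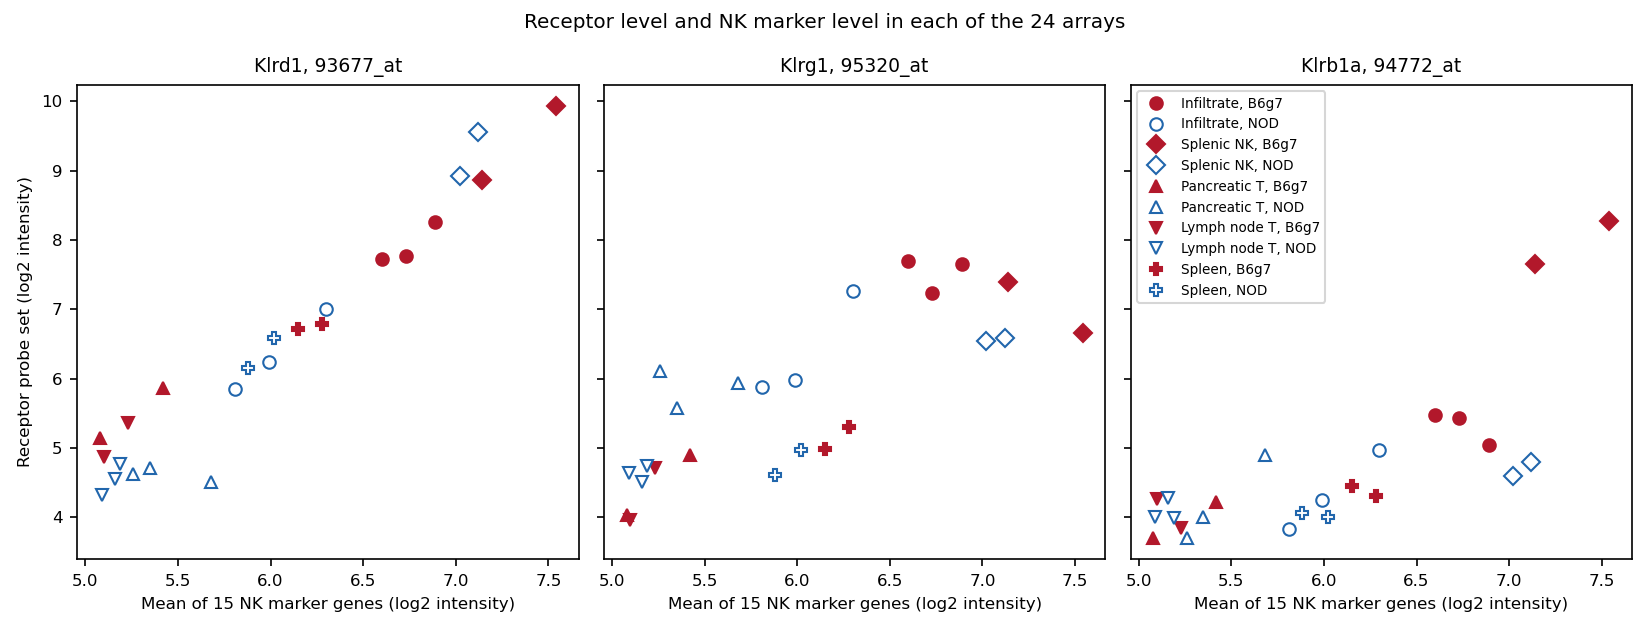
Log2 intensity of Klrd1, Klrg1 and Klrb1a against the mean of 15 NK marker genes in each array, with the population as the symbol and the background as the colour (B6g7 filled, NOD open). Klrd1 is highest in NK arrays (8.87 to 9.93), where the marker mean is highest, while Klrg1 in NOD pancreatic T cells (5.58 to 6.11) lies above spleen (4.61 to 5.31) at a lower marker mean, and Klrb1a in NOD NK cells (4.60 and 4.80) lies far under B6g7 NK cells.

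Among pancreatic T cells, Klrg1 had the largest background difference of the receptors, in the direction opposite to that in the infiltrates. RMA is named for the B6g7 arrays of the infiltrates and for the NOD arrays of these T cells, so the naming changes sides with the direction, and its part was not tested. Klrg1 read 4.03 and 4.90 in B6g7 T cells, against 6.11, 5.94 and 5.58 in NOD T cells. No B6g7 array reached a NOD array, and both means lay under the level of absent transcripts. The difference of -1.41 (SE 0.36) had an unadjusted p of 0.00119 and did not pass over all probe sets (limma adjusted p = 0.221). No receptor passed in pancreatic T cells, where 0.145% of all probe sets did, and 2 of the 8 had an unadjusted p under 0.05, as did 6.44% of all probe sets. The other was Klrd1, which read 5.15 and 5.86 in B6g7 T cells, against 4.62, 4.51 and 4.71 in NOD T cells (difference 0.89, SE 0.34, adjusted p = 0.57). The NK markers averaged 5.08 and 5.42 in B6g7 arrays and 5.26 to 5.68 in NOD arrays. Without the arrays with liver transcripts the Klrg1 difference was -0.86 (adjusted p = 0.909).

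Between pancreas and lymph node, Klrg1 was the receptor with the lowest p in NOD T cells. It read 6.11, 5.94 and 5.58 in NOD pancreatic T cells, against 4.64, 4.51 and 4.74 in NOD lymph node T cells. The sites did not overlap, but the difference of 1.25 (SE 0.32, limma adjusted p = 0.11) did not pass. With a replicate block it was 1.25 as well and did not pass (adjusted p = 0.0686). Without pancreatic array 3 the difference was 1.39 and passed (adjusted p = 0.0167). With any other array of the NOD sites left out it ran from 1.13 to 1.30 and did not pass. When single arrays were left out, between 0 and 1849 of all probe sets passed in this comparison, against 2 with all arrays. In B6g7 T cells Klrg1 read 4.03 and 4.90 in the pancreas, against 3.96 and 4.71 in the lymph node, which overlapped (difference 0.13, SE 0.40). No receptor passed between the sites in B6g7, where 0% of all probe sets did, or in NOD, where 0.0161% did. At an unadjusted p under 0.05 the receptors numbered 0 of 8 in B6g7, where 0.652% of all probe sets did, and 1 of 8 in NOD, a share below the 18.2% of all probe sets.

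Lymph node T cells and whole spleen showed no receptor past the threshold between backgrounds, with 0 of 8 at an unadjusted p under 0.05 in each (limma). Over all probe sets, 0.129% passed in lymph node T cells and 0.0725% in spleen, and 6.96% and 1.25% had an unadjusted p under 0.05. In the spleen the 8 differences had a median of 0.33, led by 93380_at, which read 6.45 and 6.33 in B6g7 spleen, against 5.79 and 5.83 in NOD spleen (difference 0.58, SE 0.33). In lymph node T cells the Klrd1 difference was 0.57 (4.87 and 5.36 in B6g7, against 4.33, 4.55 and 4.77 in NOD), and the median over the receptors was 0.

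**Figure D3:**
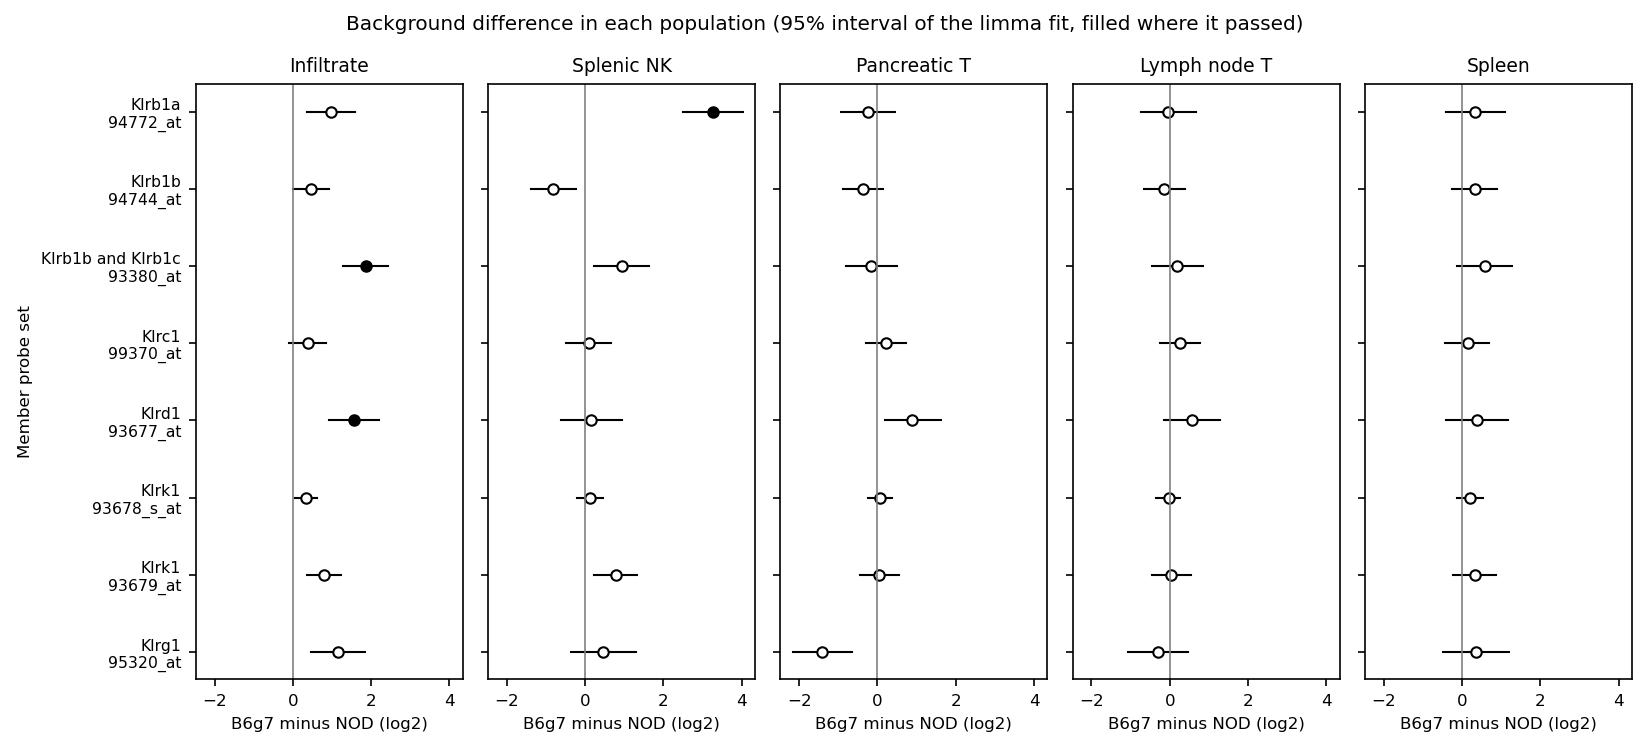
B6g7 minus NOD difference of each receptor probe set (log2) in the 5 populations, with 95% intervals of the limma fit; filled points had an adjusted p under 0.05. The filled points are 93380_at (1.87) and Klrd1 (1.55) in infiltrates and Klrb1a (3.27) in NK cells, and Klrg1 in pancreatic T cells (-1.41) has an interval below 0 without passing.

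Whether the background difference itself differed between populations was tested by interaction terms, and no receptor passed in any of them (limma). Against the spleen, 0.0403% of all probe sets passed, and 93380_at differed by 1.29 (SE 0.43, unadjusted p = 0.00825) and Klrd1 by 1.18 (SE 0.48, unadjusted p = 0.0255). Against NK cells, 0% of all probe sets passed, and Klrb1a differed most among the receptors, with 0.97 in infiltrates against 3.27 in NK cells (interaction -2.30, SE 0.46, unadjusted p = 1.21e-04, adjusted p = 0.498). Klrb1b gave 0.47 in infiltrates against -0.82 in NK cells (interaction 1.28, SE 0.35, adjusted p = 1). Against pancreatic T cells, a comparison added after seeing the data, 0.0161% of all probe sets passed, and Klrg1 gave 1.15 in infiltrates against -1.41 in T cells (interaction 2.56, SE 0.49, unadjusted p = 6.35e-05, adjusted p = 0.124). Without NOD infiltrate array 3 that interaction was 3.01 and passed (adjusted p = 0.0137). Leaving out any other infiltrate array or any NOD T cell array gave 2.31 to 2.71, without passing. Leaving out B6g7 T cell array 1 or 2 gave 2.13 and 3.00. At an unadjusted p under 0.05 the receptors numbered 2, 4 and 5 of 8 against spleen, NK cells and pancreatic T cells in that order, where 1.2%, 0.813% and 3.14% of all probe sets did.

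NK cells carried most of these receptors well above the clonotype-high T cells. Over the lymph node T cells, 6 of 8 probe sets were higher in B6g7 NK cells and 5 of 8 in NOD NK cells, none lower, where 3.52% and 10.1% of all probe sets passed in B6g7 and NOD. Klrd1 led in both. It read 9.93 and 8.87 in B6g7 NK cells, against 4.87 and 5.36 in B6g7 lymph node T cells, a rise of 4.28 (SE 0.37, limma adjusted p = 2.05e-06). In NOD it read 9.56 and 8.92 in NK cells, against 4.33, 4.55 and 4.77 in lymph node T cells, a rise of 4.69 (SE 0.34, adjusted p = 1.34e-07). The T cell means lay under the level of absent transcripts, so the folds of 19.5 in B6g7 and 25.8 in NOD may understate the change. Klrk1 (93679_at) read 8.11 and 7.48 in B6g7 NK cells and 6.97 and 7.07 in NOD NK cells, 2.59 and 1.84 above the lymph node T cells of its background. Klrb1a rose by 3.91 in B6g7 NK cells (adjusted p = 3.14e-06), and its difference of 0.60 in NOD NK cells did not pass (adjusted p = 0.277). Fitting only the compared groups left no receptor call in B6g7.

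Against whole spleen, which contains NK cells of its own, 6 of 8 probe sets rose in B6g7 NK cells and 5 of 8 in NOD NK cells, where 11.6% and 11.2% of all probe sets passed. In B6g7 the largest was Klrb1a (3.59, SE 0.36, limma adjusted p = 2.47e-06), followed by 93380_at (2.72) and Klrd1 (2.65). In NOD the largest were Klrd1 (2.86, SE 0.37, adjusted p = 5.11e-05) and Klrb1b (2.74, SE 0.27, adjusted p = 2.25e-06), while Klrb1a differed by 0.66 (adjusted p = 0.311). NK cells and spleen also differ in amplification rounds, and the Gapdh gap given above moves with this comparison. The NK arrays also read transcripts of other cells. The granulocyte transcript S100a8 read 9.04 and 11.29 in B6g7 NK arrays and 5.03 and 12.58 in NOD NK arrays, and the 11 T cell markers averaged 7.58 and 5.96 in B6g7 arrays and 7.35 and 6.42 in NOD arrays. The B cell markers (6 of 7 measured) averaged 7.08 and 7.23 in B6g7 and NOD NK cells, against 9.78 and 9.66 in B6g7 and NOD spleen. The part of these cells was not tested.

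**Figure D4:**
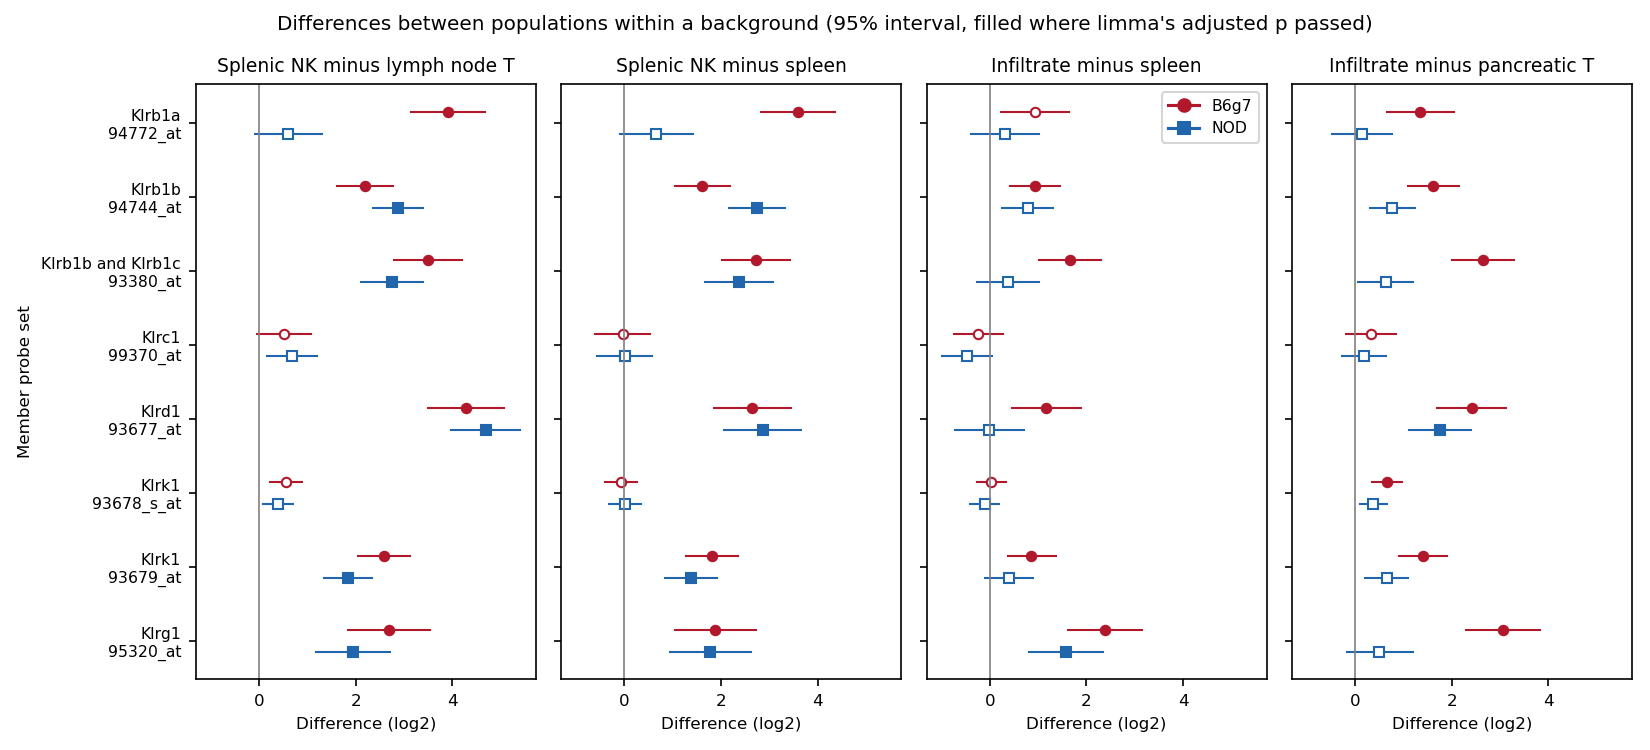
Log2 differences between populations within B6g7 (red circles) and within NOD (blue squares), with 95% intervals; filled symbols had an adjusted p under 0.05. Klrd1 lies furthest right in NK cells over lymph node T cells (4.28 in B6g7 and 4.69 in NOD), Klrb1a is filled in B6g7 only, and Klrg1 is the 1 filled NOD symbol for infiltrate over spleen.

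Of the receptors, Klrg1 differed most between infiltrates and spleen on both backgrounds. It read 7.24, 7.70 and 7.65 in B6g7 infiltrates, against 5.31 and 4.99 in B6g7 spleen, and rose by 2.38 (SE 0.36, limma adjusted p = 4.06e-04). In NOD it read 5.98, 5.88 and 7.26 in infiltrates, against 4.97 and 4.61 in spleen, and rose by 1.58 (SE 0.36, adjusted p = 0.0101). Neither pair overlapped, although NOD infiltrate array 3 stood above the other 2. The spleen means of 5.15 in B6g7 and 4.79 in NOD were not above the level of absent transcripts, so the sizes and their rank among the receptors rest on a baseline that is not measured well. The Gapdh gap (2.96 and 3.32 in B6g7 and NOD infiltrates, against 0.33 and 0.22 in B6g7 and NOD spleen) moves with this comparison. So do the amplification rounds and the B cell markers (7.95 and 7.99 in infiltrates, against 9.78 and 9.66 in spleen). BDC2.5 is named in the titles of the infiltrate arrays and not of the spleen arrays. The part of all these was not tested. Without either NOD spleen array the NOD call was lost. In B6g7 a further 4 probe sets rose, 93380_at (1.67, adjusted p = 0.00203), Klrd1 (1.16, 0.0458), Klrb1b (0.93, 0.0273) and Klrk1 93679_at (0.86, 0.0317), making 5 of 8 where 7.58% of all probe sets passed. The last 3 were lost with the replicate block and when any of several arrays was left out. In NOD, Klrg1 was the 1 receptor of 8 past the threshold, where 9.12% of all probe sets passed, a share close to the background, and Klrd1 differed by -0.02.

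Set against the T cells of the same organ, B6g7 infiltrates were higher in 7 of 8 probe sets, where 2.71% of all probe sets passed, and NOD infiltrates in 1 of 8, where 3.23% passed. Klrg1 differed most in B6g7 (3.06, SE 0.36, limma adjusted p = 4.62e-05), followed by 93380_at (2.65) and Klrd1 (2.41). The B6g7 T cell means of these 3 (4.47, 5.41 and 5.50) were not above the level of absent transcripts, which limits what their sizes and rank show. Among the 7, Klrb1a (5.32 in infiltrates against 3.96) and Klrk1 93678_s_at (3.92 against 3.27) were not above that level on either side. In NOD, Klrd1 was the probe set that rose (1.75, SE 0.30, adjusted p = 0.00212), while Klrg1 differed by 0.50 (adjusted p = 0.521), with the NOD T cells themselves at 5.58 to 6.11. Without the arrays with liver transcripts, 93380_at and Klrg1 remained of the 7 in B6g7. The NOD call of Klrd1 was lost with array weights and in a fit of the compared groups alone.

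The order of the levels over the 10 groups differed between the receptors. Klrd1 ran highest in NK cells (means 9.40 in B6g7 and 9.24 in NOD, which overlapped), then in B6g7 infiltrates (7.92), B6g7 spleen (6.75), NOD spleen (6.38) and NOD infiltrates (6.36), with all T cell groups at 5.50 or less. The NOD infiltrate arrays (5.85 to 7.0) spanned both spleen groups. Klrk1 (93679_at) followed nearly the same order, at 7.80 in B6g7 NK cells, 7.02 in NOD NK cells and 6.83 in B6g7 infiltrates, none overlapping the next. Klrb1b was highest in NOD NK cells (9.28) and B6g7 NK cells (8.47), then in B6g7 (7.79) and NOD (7.32) infiltrates. It was the 1 receptor with a mean above the level of absent transcripts in every group. Its lowest mean, 6.17 in B6g7 pancreatic T cells, lay close to that level of 6.08. Pancreatic T cell array 1 fell under it on both backgrounds (5.80 in B6g7 and 6.04 in NOD). Klrg1 was highest in B6g7 infiltrates (7.53), which overlapped B6g7 NK cells (7.03), and lowest in B6g7 lymph node T cells (4.34). Klrb1a was above that level in B6g7 NK cells only.

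Klrc1, the inhibitory partner chain of CD94, could not be followed. Its probe set lay between 4.08 and 5.23 on all arrays, NK cells included, and its neighbouring groups overlapped all the way down the order. The second Klrk1 probe set, 93678_s_at, lay between 3.07 and 3.98. For both, a low level and probes that read the transcript poorly cannot be told apart.

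No gene of the lists of adaptors, phosphatases and ligands of these receptors passed between the infiltrates (limma). Of 13 adaptor and signalling genes 11 were measured, with a median difference of 0.12. Tyrobp, which encodes DAP12, read 9.33 in B6g7 and 9.10 in NOD infiltrates (difference 0.23, SE 0.50). The 3 inhibitory phosphatases had a median difference of 0.03 and the 3 measured ligand genes of 17 one of -0.02, with Cdh1, the E-cadherin ligand of KLRG1, at 5.95 in B6g7 and 6.09 in NOD. Between NK cells and spleen the adaptors did differ. Tyrobp rose by 2.56 in B6g7 and 2.83 in NOD NK cells, and Fcer1g, the Fc receptor gamma chain, by 1.67 and 1.84 in the same order, whereas Syk, Plcg2 and Grb2 fell on both backgrounds. In all, 3 adaptor genes rose and 3 fell of 11 in B6g7, and 2 rose and 4 fell in NOD, where 11.6% and 11.2% of all probe sets passed. The phosphatases Ptpn6 (SHP-1) and Inpp5d (SHIP1) fell by 2.62 and 1.26 in B6g7 NK cells relative to spleen, and fell by 2.13 and 1.40 in NOD NK cells. The B cell markers, amplification rounds and Gapdh gap given for NK cells and spleen move with these differences too. Among the NK arrays, Tyrobp (10.05) and Fcer1g (6.02) were lowest in NOD array 1, where the granulocyte transcript S100a8 was also lowest (5.03). The part of all these was not tested. Hcst, H2-T23 and Clec2d had no probe set that names them alone and were not analysed here.

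Genes with the most similar profiles were ranked by Pearson's r over the 10 group means, as a description over groups that share arrays, strains and amplification. Klrd1 was closest to Car2 (0.975), the Ly49 gene Klra7 (0.973) and Klrk1 (0.963), followed by Klra3 and Cst7. Klrk1 was closest to Klra7 (0.983), the chemokine receptor Ccr2 (0.979) and Cd244a (0.971), followed by Klra3 and Fgl2. For Klrb1b the closest were Ocm and Fcer1g (0.957 each), followed by Lilr4b, Ctnnd2 and Cd244a. Klrb1a had Khdc1c (0.982) ahead of Hopx (0.905), Clip4, Col11a1 and Hpgd. Klrb1a was above the level of absent transcripts in B6g7 NK cells only, so these values rest mainly on that group. Klrg1 had Eea1 (0.961) and Kit (0.960), then Litaf, Tmem159 and Tirap. Klrc1, at low levels throughout, had Zfhx3 (0.937), then Ap1s1, Sema4a, Arpc5l and Vipr1. Between the receptors, r was highest for Klrd1 with Klrk1 (0.96) and lowest for Klrc1 with Klrg1 (0.37), and the related genes Klrb1a and Klrb1b had 0.63.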

How the data were processed

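RNA of sorted mouse leukocytes was measured on 24 oligonucleotide arrays in 10 groups, and the authors deposited 1 table of linear intensity per probe set, with 1 column per array. RMA is named for 11 arrays, per the submitters' processing notes; how the other 13 were processed, with which version and settings, was not given in the sources used here. Array medians ran from 35.1 to 39.1, and the number of arrays limits the precision.

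Log2 was taken of the deposited intensity without a pseudocount (smallest value 5.70). Of 12488 probe sets, 66 controls were left out. Symbols of the platform annotation were updated by Entrez identifier against RefSeq (GRCm38.p6), which gave 10833 probe sets with 1 gene. Group means were fitted with limma 3.58.1 in R 4.3.3 over all arrays (14 residual degrees of freedom), two-sided, with Benjamini-Hochberg adjustment over 12422 probe sets within each comparison. Tests ran on simulated data first. Promoters were searched with Python 3.11.15 and aligned with Biopython 1.88.

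The receptors, gene lists and tests were chosen with earlier results of these data known. All receptor probe sets are named, and the brightest stands for its gene; for similar profiles the 5 genes with the highest correlation are named. Deviations of same-numbered arrays correlated by 0.34, 0.36 and 0.29 between NOD pancreatic and lymph node T cells, and by 0.79 between those of B6g7. What a shared number marks is not stated, so the reported fits hold no pairing, and a replicate block was run as an alternative. Alternatives were quantile normalization, median centring, array weights, a trended robust prior, only the compared groups, leaving out the dimmest 40% of probe sets, a replicate block, serial code runs as a block (codes up to 3 apart), leaving out infiltrate and pancreatic T cell arrays with liver transcripts, and leaving out each array.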

Additional observations from a re-analysis of the deposited data

Results flagged for a closer look

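Some receptors had background differences of opposite direction in a pair of populations, with every B6g7 array on one side of every NOD array in each. None of these differences between populations was tested. For Klrb1b the B6g7 minus NOD difference was -0.82 in NK cells and 0.32 in spleen, a gap of -1.13. For Klrg1 it was -1.41 in pancreatic T cells and 0.46 in NK cells, a gap of -1.87, and against the spleen difference of 0.36 the gap was -1.77. The Klrg1 means in pancreatic T cells (4.47 in B6g7 and 5.87 in NOD) and spleen (5.15 and 4.79) were not above the level of absent transcripts. Groups hold 2 or 3 arrays, and groups this small can lie apart without a background difference. The share of all probe sets whose groups lie apart was not counted. Single arrays were not tested for lying apart from their group.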

How the results depend on the processing

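The 93380_at rise in infiltrates was kept in 14 of 15 alternatives (1.68 to 2.03), that of Klrd1 in 7 of 15 (1.30 to 1.90), and that of Klrb1a in NK cells in 9 of 10 (2.96 to 3.58). Receptor counts moved as follows. With array weights 5 receptor probe sets passed in infiltrates, in place of 2, 2 in NK cells in place of 1, 3 in NOD infiltrates over spleen in place of 1, 0 in NOD infiltrates over pancreatic T cells in place of 1, and 2 in the interaction of infiltrates with NK cells in place of 0. Over all probe sets these counts went with 302 in place of 34, 67 in place of 6, 3027 in place of 1133, 217 in place of 401 and 7 in place of 0. Fitting only the compared groups gave 1 in infiltrates, 0 in NK cells, 2 in NOD infiltrates over spleen, 0 in B6g7 NK cells over lymph node T cells and 0 in NOD infiltrates over pancreatic T cells. Median centring gave 2 for NOD infiltrates over spleen. The dim filter gave 0 in NK cells, because it removes the Klrb1a probe set. Serial code runs as a block gave 1 in infiltrates. Leaving out arrays with liver transcripts gave 0 in infiltrates, 2 in B6g7 infiltrates over spleen and 2 over pancreatic T cells, with fewer arrays. The replicate block gave 2 in B6g7 infiltrates over spleen in place of 5 and changed no other receptor count by over 1.5 times; what a shared number marks is not stated. Leaving out single arrays gave 1 to 3 in infiltrates, 2 to 3 in B6g7 and 0 to 1 in NOD infiltrates over spleen, 5 to 6 in B6g7 and 4 to 5 in NOD NK cells over spleen, 4 to 6 in B6g7 and 1 to 3 in NOD infiltrates over pancreatic T cells, 0 to 1 in NOD pancreatic over lymph node T cells, and 0 to 1 in the interaction of infiltrates with pancreatic T cells. Over all probe sets, the count for NOD pancreatic over lymph node T cells ran from 0 to 1849 in these fits. Where 1 array was left in a group, its spread was taken from the other groups. Of 75 receptor differences with an unadjusted p of at least 0.05, 38 changed sign in some alternative; the largest of these was 0.37, and 2 were called in an alternative. No difference under that p reversed.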
